A study of Mus musculus with 12 samples.

Results

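The genes of cholesterol synthesis and its regulation were examined in mouse lymphocytes at rest, B cells and naive CD4+ T cells. The members are 8 of the 41128 genes in the expression table and were taken by gene name: the synthesis enzymes Hmgcs1, Idi1, Fdft1 and Sqle, the regulators Insig1, Srebf1 and Srebf2, and the efflux transporter Abcg1. None of the 8 is an uptake receptor, so uptake is described through a separate list of genes. RNA was sequenced in 12 libraries that form 4 groups of 3, namely CD43- resting B cells from females and from males and naive CD4+ T cells from females and from males. All mice were C57BL/6J of 6 to 8 weeks of age, no group carried an introduced allele or received a treatment according to the labels, and all cells came from the spleen. The T cells were depleted of other cells with magnetic beads and then sorted as CD62L high, CD44 low and CD25 negative. Replicates are pooled mice according to the series, so every p-value rests on the spread between pools.

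Cells make cholesterol from acetyl-CoA through mevalonate, isoprenoid diphosphates, squalene and a series of sterol intermediates. The transcription factors SREBP-1 and SREBP-2, encoded by Srebf1 and Srebf2, switch on the enzymes of this pathway when membrane sterol is low, SREBP-2 acting mainly on cholesterol genes and SREBP-1 also on fatty acid genes. When sterol is plentiful, the INSIG proteins hold the SREBPs in the endoplasmic reticulum, while the liver X receptors (LXRs), activated by oxysterols, induce exporters such as ABCG1 and ABCA1. Lymphocytes raise sterol synthesis when they are activated and start to divide, and resting lymphocytes keep it low.

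Levels are given as adjusted TPM, the signal in the deposited table, a transcript abundance corrected for gene length and then rescaled between libraries by a method that is not stated. Sequencing depth is unknown. The totals of adjusted TPM per library ran from 561020 to 1453940, and the 3 most abundant RNAs took between 19.0% and 51.7% of a total. The highest total belonged to male T cell 6, in which the small RNA gene Yam1 alone took 37.4%. Marker genes followed the labels: the summed level of 4 B cell identity genes was 2220 to 2643 in B cell libraries and 0.896 to 4.91 in T cell libraries, and that of 5 T cell identity genes was 9.76 to 14.1 and 1017 to 1194. In these bulk samples, fewer cells of a type and less RNA per cell cannot be told apart.

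SREBPs bind sterol regulatory elements, usually beside a box for the factor NF-Y, in the promoters of their target genes. The promoters of 5 members were read from RefSeq (GRCm38.p6) as the 250 bases before the start site, shortened where the annotated gene begins earlier, and 3 are shown because they belong to a classical target enzyme, to an SREBP gene and to the retention protein of the pathway. Capitals mark the element core TCACNCCA and the box CCAAT, either of them on either strand. The letters of the motifs were chosen with these promoters already read. The windows lie on the plus strand at chr13:119690101-119690350 for Hmgcs1, chr15:82147019-82147180 for Srebf2 and chr5:28071162-28071362 for Insig1.
Hmgcs1: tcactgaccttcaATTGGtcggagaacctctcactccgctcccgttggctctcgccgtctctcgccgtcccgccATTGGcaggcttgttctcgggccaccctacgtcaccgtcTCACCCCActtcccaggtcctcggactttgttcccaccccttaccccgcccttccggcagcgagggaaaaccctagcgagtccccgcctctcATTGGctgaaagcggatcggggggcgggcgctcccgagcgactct
Srebf2: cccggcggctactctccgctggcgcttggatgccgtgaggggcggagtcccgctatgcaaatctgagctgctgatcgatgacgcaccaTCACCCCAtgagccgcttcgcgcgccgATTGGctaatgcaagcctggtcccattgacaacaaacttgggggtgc
Insig1: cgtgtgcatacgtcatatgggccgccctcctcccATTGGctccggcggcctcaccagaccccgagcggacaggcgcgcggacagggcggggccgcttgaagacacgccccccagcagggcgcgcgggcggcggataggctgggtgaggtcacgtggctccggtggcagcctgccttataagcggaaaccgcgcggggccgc
The Hmgcs1 window held 1 element core, which also matched the longer form TCACNCCAC, and 3 CCAAT boxes on the reverse strand. The Srebf2 window of 162 bases held 1 core and 1 box. The Insig1 window of 201 bases held no core, 1 box and 1 CACGTG letter group. Among all 32851 RefSeq promoters cut to the same lengths, the core was present in 3.67% at 250 bases and 2.37% at 162 bases, the longer form in 1.05% at 250 bases, and the box in 33.8%, 21.8% and 28.6% at 250, 162 and 201 bases. The window of Idi1 held neither motif, and the 3 start sites of Srebf1 held no core and 1, 0 and 1 box. A match is a description of the letters only.

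B and T cells were compared first. Fdft1, Sqle, Idi1, Insig1, Srebf1 and Abcg1 were higher in T cells, by 1.33 to 1.61 times in mean adjusted TPM, and Srebf2 was higher in B cells, where its mean was 45.5 against 32.0 in T cells. Hmgcs1 did not pass the test. The test was limma on log2(adjusted TPM + 1) across 12520 genes, a p under 0.05 after Benjamini-Hochberg adjustment counting as passed, and 7 of the 8 members did so. Of all genes tested, 73% passed, 31.4% with the higher level in B cells and 41.6% with the higher level in T cells, so the share of members that passed is near that of genes in general. The members' absolute log2 differences ranked between the 22.9th and 63.0th percentile of all genes tested. All 8 members passed the filter on low values, which asked for 3 or more libraries at an adjusted TPM of 1 or above.

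**Figure D1:**
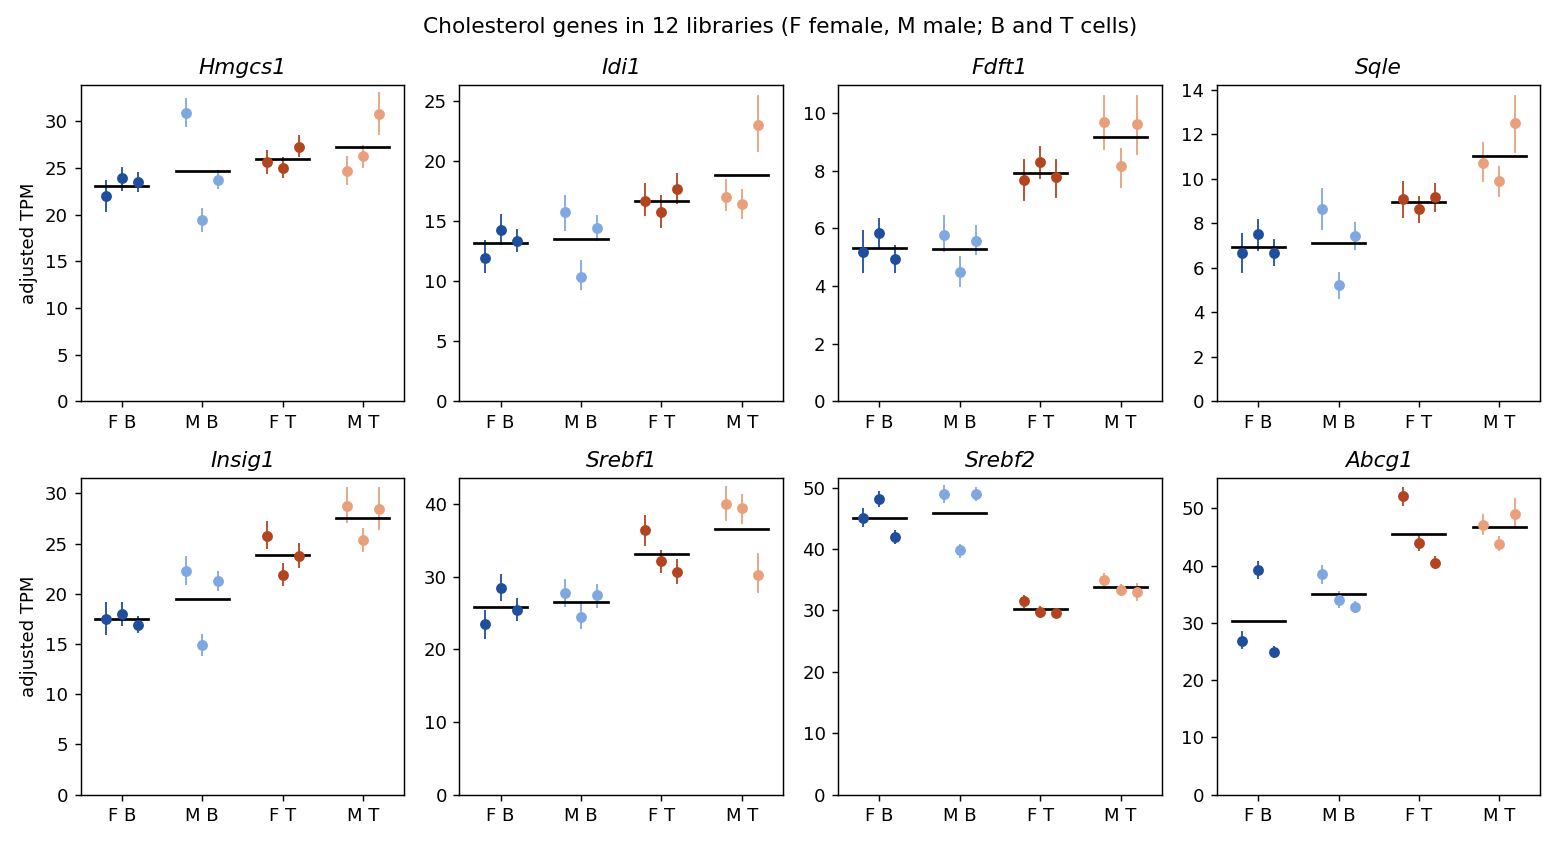
Adjusted TPM of the 8 member genes in each of the 12 libraries, with female and male B cells and female and male T cells along the horizontal axis (F B, M B, F T, M T, 3 libraries each). Points are libraries in order of their replicate number, vertical bars run from the deposited lower to upper bound, and horizontal lines are group means. The 6 B cell libraries lie below the 6 T cell libraries for Fdft1, Sqle, Srebf1 and Abcg1 and above them for Srebf2.

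Hmgcs1 encodes the cytosolic HMG-CoA synthase, which makes the precursor of mevalonate (chromosome 13, 119690379 to 119708260 in GRCm38, as all coordinates below). Its adjusted TPM was 19.5, 23.6 and 30.9 (lowest, median and highest of 6) in B cells, against 24.7, 25.9 and 30.8 in T cells. Among the B cell libraries 5 of 6 lay below the lowest T cell library, and male B cell 1 was the highest of all 12 libraries. The means were 23.9 ± 3.80 (SD, n = 6) and 26.6 ± 2.27 (SD, n = 6), a log2 difference (B minus T) of -0.16 (SE 0.09, limma adjusted p = 0.149). Without male B cell 1 the log2 difference was -0.24 (limma adjusted p = 0.0107), so this library decided whether Hmgcs1 passed.

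Idi1 encodes the isomerase that interconverts the isoprenoid building blocks (chromosome 13, 8885501 to 8892451). Its adjusted TPM was 10.4, 13.8 and 15.7 (lowest, median, highest) in B cells, against 15.7, 16.9 and 23.0 in T cells. The cell types met at male B cell 1 and female T cell 5, and male T cell 6 stood above all others. The means were 13.3 ± 1.92 (SD, n = 6) and 17.8 ± 2.65 (SD, n = 6), a log2 difference of -0.39 (SE 0.11, limma adjusted p = 0.00518). Fdft1, squalene synthase, commits isoprenoids to sterols (chromosome 14, 63145150 to 63179578). Its adjusted TPM was 4.50, 5.38 and 5.85 in B cells, against 7.67, 8.22 and 9.68 in T cells, with no overlap. The means were 5.30 ± 0.525 (SD, n = 6) and 8.53 ± 0.901 (SD, n = 6), a log2 difference of -0.60 (SE 0.07, limma adjusted p = 6.96e-06) and the largest of the 8 in size.

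Sqle encodes squalene epoxidase, the first oxygen-requiring step and a control point of the pathway (chromosome 15, 59315077 to 59331192). Adjusted TPM was 5.21, 7.05 and 8.65 in B cells, against 8.66, 9.52 and 12.5 in T cells. The groups did not overlap, but male B cell 1 at 8.653 and female T cell 5 at 8.656 lay next to each other. The means were 7.02 ± 1.15 (SD, n = 6) and 9.99 ± 1.41 (SD, n = 6), a log2 difference of -0.46 (SE 0.10, limma adjusted p = 0.00098). Within females alone, by a contrast of the same fit, neither Sqle (-0.33, limma adjusted p = 0.0539) nor Idi1 (-0.32, limma adjusted p = 0.0779) passed, while the other 5 members that passed overall did so in each sex. In these within-sex contrasts 62.7% of all genes passed in females and 62.3% in males.

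Insig1 holds the SREBPs back when sterol is plentiful and is itself an SREBP target (chromosome 5, 28071363 to 28078662). Its adjusted TPM was 14.9, 17.8 and 22.3 in B cells, against 21.9, 25.6 and 28.7 in T cells. Only male B cell 1 among the B cell libraries reached the T cell range. The means were 18.5 ± 2.80 (SD, n = 6) and 25.7 ± 2.65 (SD, n = 6), a log2 difference of -0.46 (SE 0.09, limma adjusted p = 0.000472).

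The SREBP genes went in opposite directions. Srebf1 (chromosome 11, 60199089 to 60222581) had 23.5, 26.4 and 28.4 adjusted TPM in B cells, against 30.3, 34.3 and 40.0 in T cells. Its means were 26.1 ± 1.97 (SD, n = 6) and 34.8 ± 4.39 (SD, n = 6), a log2 difference of -0.39 (SE 0.08, limma adjusted p = 0.000684). Srebf2 (chromosome 15, 82147181 to 82205379) had 39.8, 46.6 and 48.9 in B cells, against 29.6, 32.2 and 34.9 in T cells. Neither gene overlapped between the cell types, and every B cell library had more Srebf2 than any T cell library. For Srebf2 the means were 45.5 ± 3.90 (SD, n = 6) and 32.0 ± 2.15 (SD, n = 6), a log2 difference of 0.49 (SE 0.06, limma adjusted p = 1.04e-05).

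Abcg1 encodes a transporter that passes sterol to lipoproteins and is induced by LXRs (chromosome 17, 31057675 to 31117988). Its adjusted TPM was 24.9, 33.4 and 39.2 in B cells, against 40.5, 45.5 and 52.2 in T cells, with no overlap. The B cell libraries were spread more widely, female B cell 1 and female B cell 3 being the lowest and female B cell 2 the highest. The means were 32.7 ± 5.85 (SD, n = 6) and 46.1 ± 4.19 (SD, n = 6), a log2 difference of -0.50 (SE 0.10, limma adjusted p = 0.00083). In all, 5 of the 8 members had no overlap between the cell types, against 53.9% of all genes tested.

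The size of these differences depends on the scaling between libraries. The median log2 difference of all genes tested was -0.09 as deposited, -0.01 after median-ratio scaling and 0.25 once all libraries had been brought to a total of 1000000. Under that last scaling only Srebf2 passed (0.87, limma adjusted p = 2.9e-05), and Hmgcs1 turned to 0.21 (limma adjusted p = 0.36). Most of all genes tested still passed under it, more of them towards B cells than towards T cells. The share of members that passed was then below that of genes in general. Each scaling divides all genes of a library by the same factor, so every gene and the median of all genes shift nearly alike. Values relative to that median were bound to stay close and are no separate test of the scaling. Across the 3 scalings Srebf2 lay 0.58 to 0.61 above the median, Fdft1 0.51 to 0.52 below, and Hmgcs1 0.04 to 0.07 below. The other members lay below the median of all genes by 0.28 to 0.30 (Idi1), 0.37 (Sqle), 0.35 to 0.37 (Insig1), 0.28 to 0.31 (Srebf1) and 0.38 to 0.41 (Abcg1).

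Ratios of genes within a library do not involve the scaling. Srebf2 was 1.74 times the level of Srebf1 in B cells (geometric mean, 1.63 to 1.91 over 6 libraries) and 0.923 times in T cells (0.846 to 1.09), so Srebf2 was the more abundant SREBP gene in every B cell library. In T cells Srebf1 exceeded Srebf2 in all libraries but male T cell 6, where the ratio was 1.09. Srebf2 over its target Sqle was 6.53 in B cells (5.66 to 7.63) and 3.22 in T cells (2.64 to 3.47), and Srebf2 over Hmgcs1 was 1.92 (1.59 to 2.07) and 1.20 (1.07 to 1.41). Insig1 over its paralog Insig2 was 1.86 in B cells (1.58 to 2.40) and 3.68 in T cells (2.94 to 4.65). The largest contrast was between the exporters: Abcg1 over Abca1 was 0.782 in B cells (0.652 to 0.988) and 7.69 in T cells (5.46 to 9.65). None of the 5 ratios overlapped between the cell types. Each pairs genes whose differences between B and T cells had opposite signs, and 53.9% of single genes tested did not overlap either. The ratios were chosen after the values were seen, so they are given as a description with no test.

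**Figure D2:**
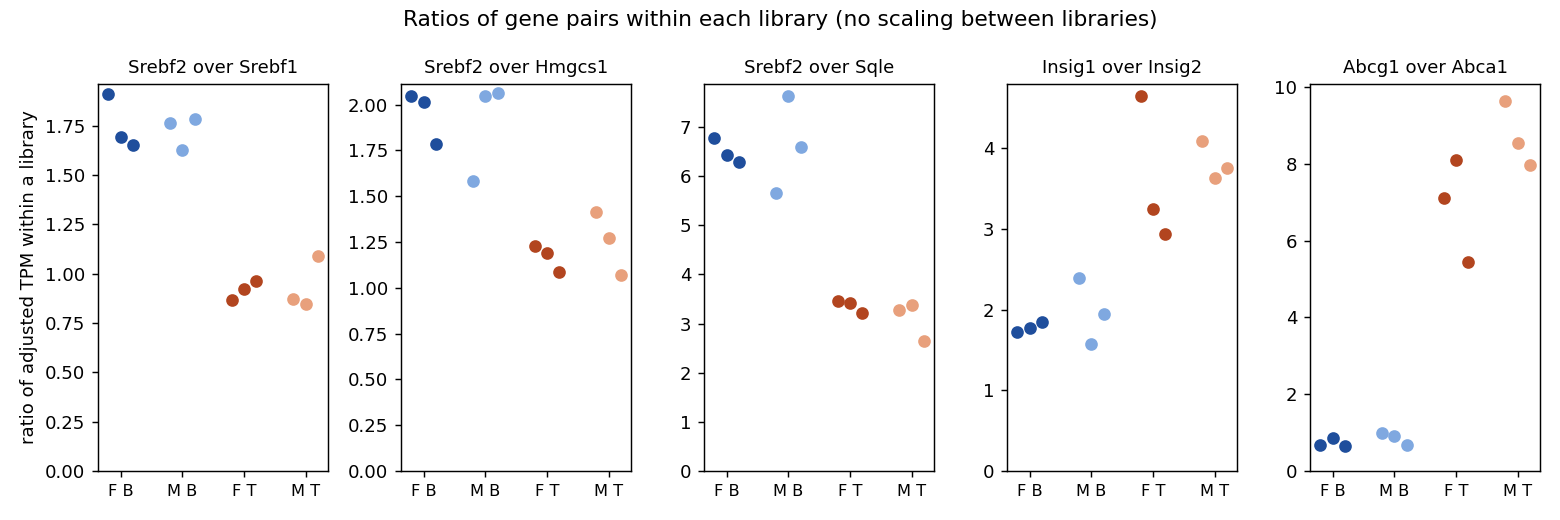
Ratio of the adjusted TPM of gene pairs within each of the 12 libraries, with the 4 groups of 3 libraries along the horizontal axis (F female, M male, B and T cells) and 1 panel per pair. Points are libraries in order of their replicate number. Srebf2 exceeds Srebf1 in all B cell libraries, and Abcg1 over Abca1 lies at or below 0.988 in B cells and at or above 5.46 in T cells.

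The wider pathway was then read from lists of genes. Of 21 enzymes of cholesterol synthesis, 19 passed, 17 with the higher level in T cells and 2 in B cells, with a median log2 difference of -0.46 against -0.09 for all genes tested. The list includes the 4 member enzymes. Of all genes tested 73% passed, 41.6% towards T cells and 31.4% towards B cells. Fdps, which makes farnesyl diphosphate, had 12.4 ± 1.91 adjusted TPM in B cells and 24.1 ± 2.54 in T cells (SD, n = 6, log2 difference -0.91), and mevalonate kinase Mvk had 3.17 ± 0.370 and 6.27 ± 0.773 (-0.80). The next kinase of the pathway, Pmvk, went the other way with 11.7 ± 0.896 in B cells and 6.11 ± 0.785 in T cells (0.84), its ranges not overlapping. Hsd17b7, a sterol ketone reductase, was also higher in B cells (0.23, limma adjusted p = 0.0416), a call that was lost in 7 of the 12 fits that leave out a library. With every library rescaled to the same total, 5 of the 21 enzymes passed, 2 towards B cells and 3 towards T cells. Most of all genes tested still passed with that scaling.

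**Figure D3:**
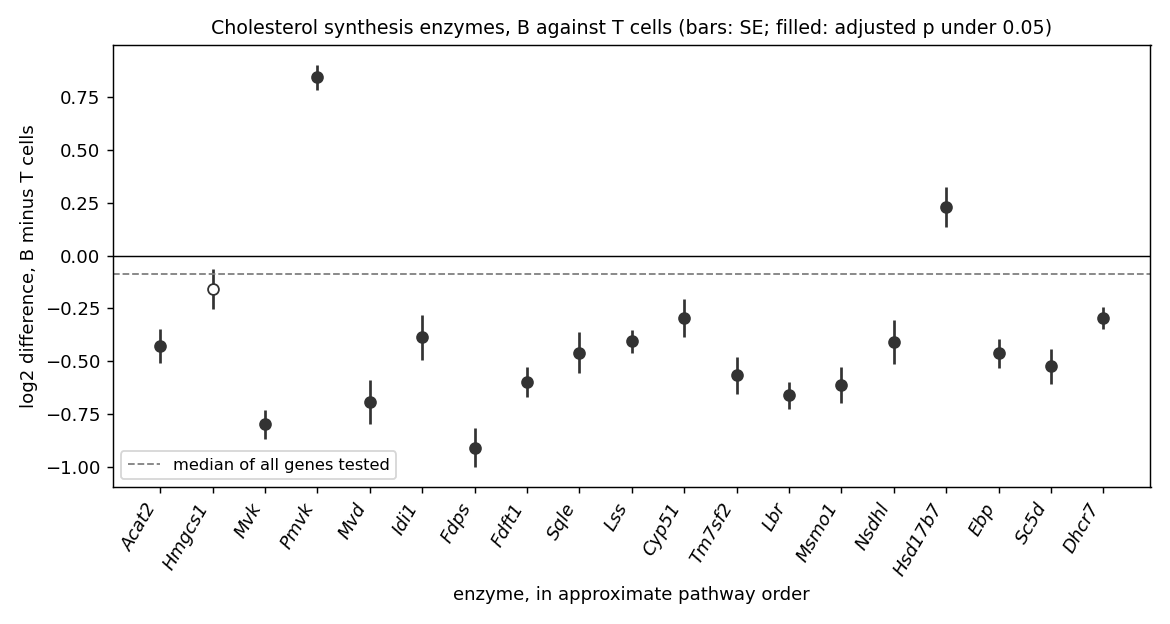
Log2 difference in log2(adjusted TPM + 1) between B and T cells (B minus T, positive where higher in B cells) for 19 of the 21 cholesterol synthesis enzymes, in approximate order of the pathway. Bars are standard errors of the limma fit, filled points have an adjusted p under 0.05, and the dashed line is the median of all genes tested (-0.09). Pmvk and Hsd17b7 lie above 0 and the other plotted enzymes below, with Fdps lowest at -0.91.

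Markers of other cell states differed in the same comparison. The summed level of 4 cell cycle genes, all past the filter, was 22.1 to 48.2 in B cells and 3.47 to 5.47 in T cells. That of 8 activation genes, likewise all past it, was 150 to 206 and 90.9 to 154. The activation genes did not move together. Irf4 (47.6 to 58.5 against 0.792 to 1.92) and Cd44 were higher in all B cell libraries. Egr2 was higher in all T cell libraries (2.67 to 3.48 against 3.64 to 6.05). Cd69, Nr4a1, Egr1, Myc and Il2ra overlapped between the cell types. Of 9 monocyte and macrophage genes 4 passed the filter, with sums over the 9 of 14.0 to 17.9 in B cells and 2.75 to 8.74 in T cells, while Cd14 was at most 0.0912 in any library. Plasma cell genes, 3 of 3 past the filter, summed to 56.7 to 138 in B cells and 2.01 to 3.00 in T cells. In B cells most of this sum was Jchain (50.7 to 131). Sdc1 was also higher in B cells, while Prdm1 was higher in T cells (0.521 to 0.932 against 1.31 to 1.96). The part of these markers in the differences of the cholesterol genes was not tested.

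Among 15 genes that control SREBP, 11 passed, 5 towards B cells and 6 towards T cells, with a median log2 difference of -0.08. This share is near the 73% of all genes tested. With all libraries at the same total 6 passed, all towards B cells, with a median of 0.29. The median of all genes tested was then 0.25. After median-ratio scaling 6 passed towards B cells and 4 towards T cells. Erlin1, an endoplasmic reticulum protein that binds sterol and restrains SREBP, had 9.79 ± 1.29 adjusted TPM in B cells and 2.50 ± 0.286 in T cells (SD, n = 6, log2 difference 1.62). Insig2, the second INSIG gene, had 9.87 ± 0.674 and 6.99 ± 0.860 (0.45), opposite in direction to Insig1. Pgrmc1, a haem protein that binds INSIG1 and sterol enzymes, was higher in T cells with 19.6 ± 1.27 and 27.1 ± 2.00 (-0.45).

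Of 16 genes of uptake and intracellular transport, 14 passed the filter and 11 passed the test, 10 of them towards T cells. Their median was -0.78. Of all genes tested 73% passed, 41.6% towards T cells. With all libraries at the same total 3 passed towards B cells and 7 towards T cells, with a median of -0.42. Npc2, which carries cholesterol out of lysosomes, had 21.2 ± 2.51 in B cells and 153 ± 17.0 in T cells (SD, n = 6, log2 difference -2.80). The lysosomal acid lipase Lipa had 16.1 ± 1.94 and 56.2 ± 7.38 (-1.74). The single gene higher in B cells was Mylip, whose product marks lipoprotein receptors for degradation, with 62.2 ± 7.39 and 28.9 ± 1.49 (1.07).

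Of 13 genes of efflux, LXR signalling and esterification, 11 passed the filter and 10 the test, against 73% of all genes tested. Of the 10, 4 went towards B cells and 6 towards T cells, and the median of the list was -0.50. With all libraries at the same total the split turned to 4 towards B cells and 3 towards T cells, with a median of -0.12. Apoe, the apolipoprotein that accepts exported sterol, had 62.6 ± 13.2 adjusted TPM in B cells and 2.00 ± 0.873 in T cells (SD, n = 6, log2 difference 4.42). Abca1, the exporter that loads lipid-poor apolipoproteins, had 41.4 ± 4.76 and 6.05 ± 1.10 (2.60), the reverse of Abcg1. Soat1, which esterifies cholesterol for storage, had 35.9 ± 2.28 and 17.3 ± 1.58 (1.01). On the T cell side stood Arl4c, a small GTPase induced by LXRs, with 1.86 ± 0.165 and 221 ± 30.7 (-6.27), Smpdl3a, another LXR target, with 17.1 ± 1.78 and 61.3 ± 4.59 (-1.79), and the LXR partner Rxra with 0.234 ± 0.0708 and 2.74 ± 0.296 (-1.60). The LXR-induced genes Abca1 and Abcg1 were thus higher in different cell types.

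Of 6 oxysterol genes 3 passed the filter and all 3 passed the test, against 73% of all genes tested. Cyp27a1, a sterol hydroxylase, had 9.82 ± 2.01 in B cells and 0.0391 ± 0.0438 in T cells (SD, n = 6, log2 difference 3.36). Hsd3b7 was higher in B cells (0.37). The oxysterol receptor Gpr183 was higher in T cells (-0.36), which turned to 0.014 and did not pass with all libraries at the same total. Of 9 isoprenoid genes 6 passed (against 73% of all genes tested), 3 in each direction, with a median of -0.14. At the same total 3 passed towards B cells and 1 towards T cells, and the median turned to 0.21. The B cell side held Coq2 of ubiquinone synthesis (0.40), the prenyltransferase subunit Pggt1b (0.30) and Dhdds of dolichol synthesis (0.23), and the T cell side held the farnesyltransferase subunit Fntb (-1.61), Rabggtb (-0.38) and Ggps1 (-0.33). Of 14 fatty acid synthesis genes 12 passed the filter and all 12 the test, against 73% of all genes tested. Of the 12, 5 went towards B cells and 7 towards T cells, with a median of -0.32. At the same total 5 passed in each direction, and the median turned to 0.05. The desaturase Scd1 had 334 ± 28.6 adjusted TPM in B cells and 0.167 ± 0.170 in T cells (SD, n = 6, log2 difference 8.17), followed on that side by Mid1ip1 (1.27) and Scd2 (1.13), while Acss2 (-3.12), Fads1 (-1.82) and Lpin1 (-1.78) were higher in T cells. Scd1 and Scd2 are similar in sequence, and how reads shared by them were counted is not stated.

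The sexes were compared separately in B and in T cells. The library names carry a further code that separates females from males fully within each cell type and is swapped between the cell types. Its meaning is not stated, so within a cell type sex and this code cannot be told apart. No member passed in B cells, where the log2 differences (female minus male) ran from -0.23 to 0.01, or in T cells, where they ran from -0.26 to -0.04. No member had an unadjusted p under 0.05 in either. By the same limma test 0.144% of all genes passed in B cells (18 genes) and 0.104% in T cells (13 genes), and 2.98% and 2.55% had an unadjusted p under 0.05. The difference between the sex effects of B and T cells passed for 0% of all genes, with 295 genes (2.36%) at an unadjusted p under 0.05 and no member among them. The design had limited reach. On simulated data the fit recovered 50% of genes changed by a log2 value of 0.5 between the sexes of B cells. It recovered 94% of those changed by 1. Recovery after the adjustment depends on the share of genes changed in the simulation, which is not given here. With few genes passing in these comparisons, the recovery may be lower than simulated.

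Within T cells, Sqle and Srebf2 did not overlap between the sexes. Sqle had 9.08, 8.66 and 9.17 adjusted TPM in female and 10.7, 9.88 and 12.5 in male T cells, with means of 8.97 ± 0.273 and 11.0 ± 1.33 (SD, n = 3), a log2 difference of -0.26 (limma adjusted p = 1.00). Srebf2 had 31.5, 29.7 and 29.6 in females and 34.9, 33.4 and 32.9 in males, with means of 30.2 ± 1.08 and 33.7 ± 1.05 (SD, n = 3), a log2 difference of -0.15 (limma adjusted p = 1.00). Each male library lay above each female library for both genes, as was so for 4.09% of all genes tested (8.49% in either direction). With every library rescaled to the same total both turned to positive differences, 0.004 for Sqle and 0.13 for Srebf2. In B cells no member separated the sexes, against 7.2% of all genes.

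The list of 21 synthesis enzymes leaned the same way in T cells. It includes Sqle and the other member enzymes, so Sqle is counted again here. Of the 21 enzymes 18 were lower in female than in male T cells, against 50.3% of all genes, with a median log2 difference of -0.16, and 8 (38.1%) had all male libraries above all female libraries. None of the 21 passed, and 3 had an unadjusted p under 0.05. Taking the T cell libraries as pairs by their replicate number, 11 of the 21 enzymes (52.4%) and 4 of the 8 members were higher in the male of all 3 pairs, against 13.9% of all genes. In the limma fit with the pairs as a block no enzyme passed either, and 2 had an unadjusted p under 0.05. Without male T cell 6, 17 enzymes were lower in females and 9 did not overlap in that direction (42.9%, against 9.59% of all genes). With every library rescaled to the same total only 2 of the 21 were lower in females, as were 5.08% of all genes. Relative to the median of all genes the enzymes then lay 0.14 lower in females, against 0.16 as deposited. Such a rescaling leaves this relative value nearly unchanged by arithmetic. In B cells 16 of the 21 were lower in females, with a median of -0.02, and without male B cell 1 only 7 were.

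Libraries of the same cell type differed in the level of the pathway as a whole. In B cells, male B cell 1 was the highest library for 15 of the 21 enzymes (71.4%) and for 4 of the 8 members, against 26.1% of all genes tested, and male B cell 2 was the lowest for 6 members, against 19.8% of all genes. The enzymes of male B cell 1 had a median log2 deviation of 0.17 from the B cell mean, and those of female B cell 1 and male B cell 2 had -0.11 each. In T cells, male T cell 6 was the highest for 11 enzymes (52.4%), against 21.4% of all genes, with a median deviation of 0.13. The Srebf genes did not share this order in T cells: Srebf1 was lowest in male T cell 6, at 30.3 adjusted TPM.

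Several marker sums were also highest in male B cell 1. The sum of 5 erythroid markers, 4 of them past the filter, was 346 in male B cell 1, 197 in male B cell 3, 70.9 and 65.3 in female B cells 2 and 3, 9.05 in male B cell 2 and 4.17 in female B cell 1. Globin RNA was thus lowest in the libraries whose enzymes were lowest and highest in the library whose enzymes were highest. The sum of the 4 B cell identity genes was 2643 in male B cell 1, 2559 in female B cell 2, 2277 in female B cell 3 and 2340 in male B cell 3, and was lowest in female B cell 1 (2250) and male B cell 2 (2220). The plasma cell sum was likewise highest in male B cell 1 (138) and lowest in female B cell 1 (56.7), but was 116 in male B cell 2. In T cells the erythroid sum was highest in male T cell 5, at 77.4, and was 11.8 in male T cell 6. The sum of the 8 activation genes was 154 in male T cell 6 and 90.9 to 118 in the other 5 libraries. Cd69 alone made 97.3 of that 154. Nr4a1, Egr1, Egr2 and Irf4 were also highest in male T cell 6, while Myc, Cd44 and Il2ra were not. In B cells the activation sum was highest in female B cell 1 (206), where the enzymes were among the lowest. It was 197 in male B cell 1. The part of these transcripts in the enzyme levels was not tested. A fit that was not planned beforehand left out male B cell 1 and male T cell 6, the libraries with the highest enzymes of each cell type. In it all 8 members passed the test between B and T cells, Hmgcs1 with a log2 difference of -0.20 (limma adjusted p = 0.0200). Most of all genes tested passed in this fit as well. Male B cell 1 was the highest B cell library for 4 members, Hmgcs1 among them, so leaving it out lowers their B cell means by arithmetic. The libraries were picked by the levels under test, so the pass of all 8 is no separate evidence of a difference. Hmgcs1 also passed without male B cell 1 alone (-0.24, limma adjusted p = 0.0107). It did not pass without male T cell 6 alone, so its pass rests on leaving out male B cell 1.

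**Figure D4:**
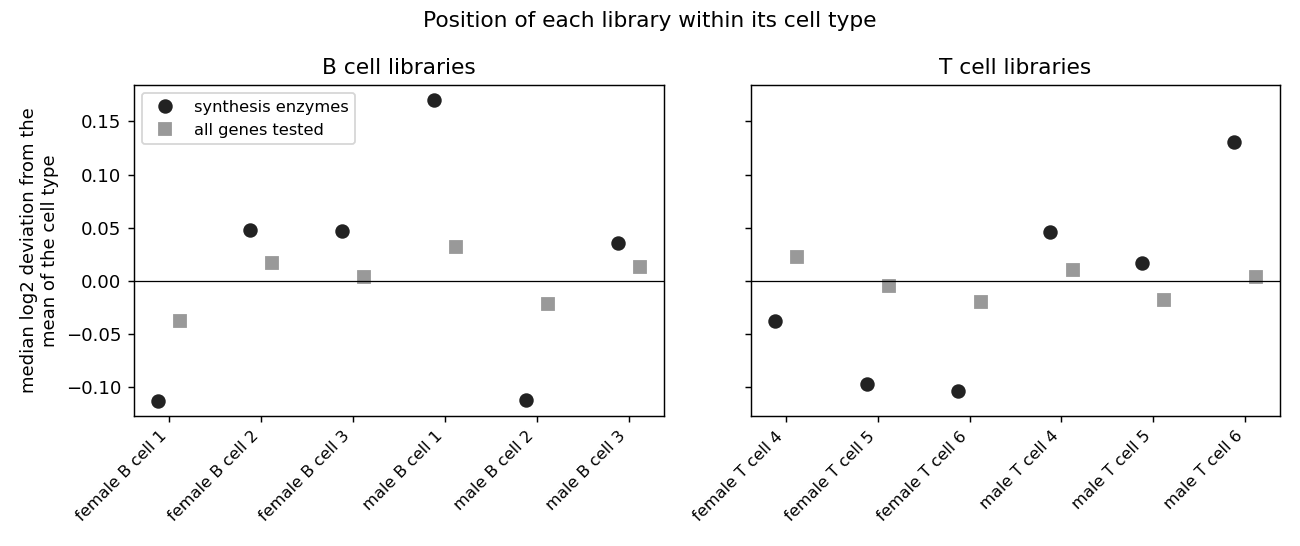
Median log2 deviation of each library from the mean of its cell type, over the 21 cholesterol synthesis enzymes (black circles) and over all 12520 genes tested (grey squares), for the 6 B cell libraries and the 6 T cell libraries. The enzymes of male B cell 1 (0.17) and male T cell 6 (0.13) stand above the others, while the medians of all genes lie within 0.04 of 0.

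By mean adjusted TPM the members stood in the order Srebf2 (45.5), Abcg1 (32.7), Srebf1 (26.1), Hmgcs1 (23.9), Insig1 (18.5), Idi1 (13.3), Sqle (7.02) and Fdft1 (5.30) in B cells. In T cells Abcg1 (46.1) came first, then Srebf1 (34.8) and Srebf2 (32.0), and the other 5 followed in the same order as in B cells. Srebf1 and Hmgcs1 in B cells, and Srebf1 and Srebf2 as well as Hmgcs1 and Insig1 in T cells, were neighbours closer than the SD between libraries. The spread within groups, as an SD of log2 values, ran from 0.10 for Srebf2 to 0.21 for Idi1 and 0.21 for Abcg1, with a median of 0.13 over all genes tested. The deposited bounds of Srebf2 were 1.05 to 1.09 times apart and those of Fdft1 1.15 to 1.33 times apart, and for Sqle and Idi1 they were apart by a median of 1.20 and 1.18 times.

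The genes most like each member over the 12 libraries were found by the root mean square difference of centred log2 profiles, among 10399 protein-coding genes. Idi1 and Sqle were each other's nearest (0.08, against a median of 0.31 for Idi1 over all genes), and Sqle and Insig1 followed each other closely (0.08). The remaining nearest genes were Sacm1l for Idi1, Zfp354c for Insig1, Rbpj and Alg11 for Hmgcs1, Hs2st1 and Rac1 for Fdft1, Eif2b2 and Spg7 for Srebf1, Cyb5r3 and Mtbp for Srebf2, and Laptm5 and Rpl28 for Abcg1, at 0.05 to 0.11. Distances of this kind describe these libraries, which share 2 cell types and their scaling.

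Some members overlap other genes, and whether the strand was used in counting is not stated, although the library kit keeps it. Fdft1 overlaps Ctsb on the opposite strand, which had 18.4 ± 1.67 adjusted TPM in B cells and 24.3 ± 2.44 in T cells (SD, n = 6). Srebf1 overlaps Rai1 on the opposite strand, with 9.13 ± 0.993 and 12.7 ± 0.434. Abcg1 overlaps the ribosomal RNA gene model Gm25447 on the same strand, with 1.62 ± 1.02 and 3.44 ± 1.23. Both Ctsb and Rai1 were higher in T cells, as were the members they overlap, and their part in the members' values was not tested.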

How the data were processed

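RNA-seq libraries (12, in 4 groups of 3 taken from the sample labels) were made with a strand-specific kit after depletion of ribosomal RNA. The submitters' processing notes name Trim Galore, FastQC, STAR and the build mm10, with no role or version. The table deposited by the authors holds a signal named adjusted TPM for 41128 genes, with a lower and an upper bound per library. The quantification tool, the adjustment and the level of the bounds are not given in the sources used here. The values are not counts, none is 0, and the precision of a library is known only from its bounds. Some label fields call the material genomic DNA, whereas the protocol describes RNA, and the values were treated as expression.

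Gene identifiers were matched to GENCODE M21 (GRCm38), and 40254 (97.9%) matched. A filter kept the 12520 genes that reached an adjusted TPM of 1 in 3 or more libraries, and these were tested with limma 3.58.1 in R 4.3.3 on log2(adjusted TPM + 1), with 1 coefficient per group, a mean-variance trend and Benjamini-Hochberg adjustment over all genes tested at 0.05. The pseudocount of 1 understates changes of low genes. Ratios, ranges and motifs were computed with Python 3.11.15, numpy 2.4.6, scipy 1.17.1 and pandas 2.3.3, and plots drawn with matplotlib 3.10.9. The fit was tested on simulated data. Alternatives were another pseudocount, other filters, scalings, models and subsets of libraries.

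The sexes share replicate numbers within a cell type. The correlation of deviations from the group means between same-numbered libraries was 0.72, 0.55 and 0.52 in T cells, so the numbers were taken to pair them. In B cells it was -0.17, -0.04 and -0.34, so there the numbers were not taken as pairs. The tests between B and T cells take all libraries as independent, so with paired T cell libraries their error may be understated.

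The 8 members and the gene lists were chosen with earlier results of these data known. Named genes were the members, the 3 genes past the threshold with the largest difference in each direction of each list, the 2 protein-coding genes nearest in profile to each member, and marker genes that moved with a result. Overlapping genes, Yam1 and the genes of the ratios were named after their values were seen. Genes of the lists that are not reported here are counted in the totals and are not named.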

Additional observations from a re-analysis of the deposited data

Results flagged for a closer look

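Idi1 in T cells was picked out because its highest library lay far from the others: male T cell 6 had an adjusted TPM of 23.0, the other 5 T cell libraries ran from 15.7 to 17.7, and the gap to the nearest was 0.735 of the whole range, above Dixon's 95% critical value for 6 libraries. Of the 16 groups examined (8 members in 2 cell types) this was the only one past that value, and chance passes about 1 in 20. The deposited bounds of Idi1 in male T cell 6 were 20.7 and 25.5, and the highest upper bound among the other T cell libraries was 19.0. The same library had the highest total of adjusted TPM (1453940) and was the highest of the T cells for 11 of the 21 synthesis enzymes. It was also highest for the sum of the 8 activation genes (154, against 90.9 to 118), of which Cd69 alone made 97.3. The part of these in the value was not tested. Without male T cell 6, the log2 difference of Idi1 between B and T cells kept its direction and passed the test.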

How the results depend on the processing

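With all libraries brought to a total of 1000000, members past the threshold between B and T cells fell from 7 to 1. Synthesis enzymes fell from 19 to 5 (2 higher in B cells, 3 in T cells) and SREBP control genes from 11 to 6 (6 and 0). These sets lost a larger share of their calls than all genes tested, most of which still passed under that scaling. Under it the differences of Hmgcs1 (0.21), Gpr183 (0.014), Ggps1 (0.0379) and, between the sexes of T cells, Sqle (0.00355) and Srebf2 (0.13) changed sign, because the median of all genes moves to 0.25. Without a filter 5 oxysterol genes passed in place of 3. The oxysterol genes that the filter had removed had means of at most 0.069 adjusted TPM in either cell type. The replicate block left 0 members past the threshold in either sex comparison and in the difference between them, as without it. Over all genes it moved the count past the threshold from 13 to 10 in T cells and from 18 to 14 in B cells, where the numbers did not pair the libraries. The block was not fitted for B against T cells, which share no replicate number. Whatever the numbers mark can therefore not be told apart from cell type.

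Leaving out each library in turn gave 7 to 8 members past the threshold between B and T cells and 0 members in each sex comparison. Between B and T cells the lists gave 18 to 20 synthesis enzymes, 10 to 11 SREBP control genes, 11 to 12 uptake genes and 9 to 10 efflux genes. They also gave 3 oxysterol genes, 6 to 7 isoprenoid genes and 12 fatty acid genes. Of all 12520 genes tested, 8717 to 9193 passed between B and T cells in these fits. Over all genes, removing the filter gave 24591 genes past the threshold between B and T cells, 10985 and 10607 between the sexes of B and T cells and 11201 for the interaction of sex and cell type; the cause was not tested. Rescaling to a total gave 36, 23 and 16 for these 3 comparisons, a pseudocount of 0.1 gave 24 in T cells and 1 for the interaction, a filter of 5 gave 7 in T cells, B cells alone gave 5, and no trend gave 3 for the interaction, as did leaving out female T cell 6.

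Depth is unknown, and for genes of low level such as Fdft1 precision is known only from the deposited bounds. With 3 libraries a group, the simulated recovery of a log2 change of 0.5 was 50% between the sexes of B cells and 7.9% for the interaction.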
